A study of Mus musculus with 31 samples.

Results

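The 6 genes Hdc, Cpa3, Mcpt8, Prss34, Ms4a2 and Fcer1a mark mast cells and basophils in the mouse. They were taken by name from 20314 genes in a mouse RNA-seq series on expandable hemangioblasts (eHBs), cultured progenitors of blood and endothelium. RNA was sequenced in 31 libraries of 9 groups. Blood cultures of the eHB lines were sorted on day 3 as VE-cadherin-positive, CD45-positive cells (n = 5), and on day 2 as VE-cadherin-positive, CD45-negative cells (n = 5). They were grown without doxycycline in 100 ng/mL each of SCF, IL-3 and Flt3L, with 3 µM of the Wnt pathway activator CHIR99021, at 1.5% oxygen. Endothelial cultures of the same lines were taken unsorted on day 3, also without doxycycline, from medium with VEGF, BMP4, FGF2 (12.5 ng/mL), a cyclic AMP analogue and the TGF-beta receptor inhibitor SB431542 (n = 5). The eHB lines themselves were kept in 2 µg/mL doxycycline, a drug used to switch on inducible transgenes (n = 5), and the tables list ectopic transcripts of transcription regulators, Gata2 and Tal1 among them, in rows of their own. Lines M5 (from embryonic fibroblasts), FL4 and FL10 (from fetal liver) are tissue-derived, and RB3.6.5 and RB4.6.9 come from embryonic stem (ES) cells. As eHB, the tissue-derived lines were given FGF2 (12.5 ng/mL), and the ES-derived lines FGF2 at that dose with the other agents of the endothelial medium. The blood medium held no FGF2. Each line gave 1 library per condition, so the replicates of these 4 groups are lines. The remaining groups were E14.5 hematopoietic stem cells (HSCs) sorted on CD45, CD201 and CD150 and on the absence of CD48 (n = 1), E11.5 endothelium sorted on VE-cadherin and Pecam1 from yolk sac (n = 2) and embryo (n = 2), Kdr-positive mesoderm made with Activin A, BMP4, 12.5 ng/mL FGF2 and 3 µM CHIR99021 (n = 3), and the ES lines RB2, RB3 and RB4 it came from, kept in 3 µM CHIR99021, PD0325901 and LIF (n = 3).

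Mast cells and basophils are granulated leukocytes that bind IgE through a surface receptor and release histamine and proteases when it is cross-linked. Both arise from hematopoietic progenitors, and SCF and IL-3 are standard factors for growing mast cells, and IL-3 for basophils, from mouse progenitors. Their genes fall into histamine synthesis (Hdc), granule proteases (Cpa3, Mcpt8, Prss34) and the IgE receptor (Fcer1a, Ms4a2).

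The 6 members did not form 1 block. On day 3 of blood culture Hdc and Cpa3 were the most abundant in every line, at 15.956 TPM or more, and Mcpt8 was lower. On day 2 Cpa3 was the highest of the 6 in every line, while Mcpt8 exceeded Hdc in FL4, FL10 and RB4.6.9. In endothelial cultures Hdc, Cpa3 and Mcpt8 averaged 1.77, 1.28 and 1.86 TPM. Across the series Prss34, Ms4a2 and Fcer1a lay near the detection limit outside single libraries. All levels are deposited TPM (transcripts scaled to a constant library total), which are scaled for transcript length and can be compared between genes. Libraries held 9424412 to 26651901 expected counts in day 3 blood and 13236697 to 27084974 in day 2 blood. They held 29990385 to 48340524 in endothelial cultures, 22844070 to 39860050 in eHB and 79497758 in HSCs. In these bulk samples, fewer cells of a type and less RNA per cell cannot be told apart.

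**Figure D1:**
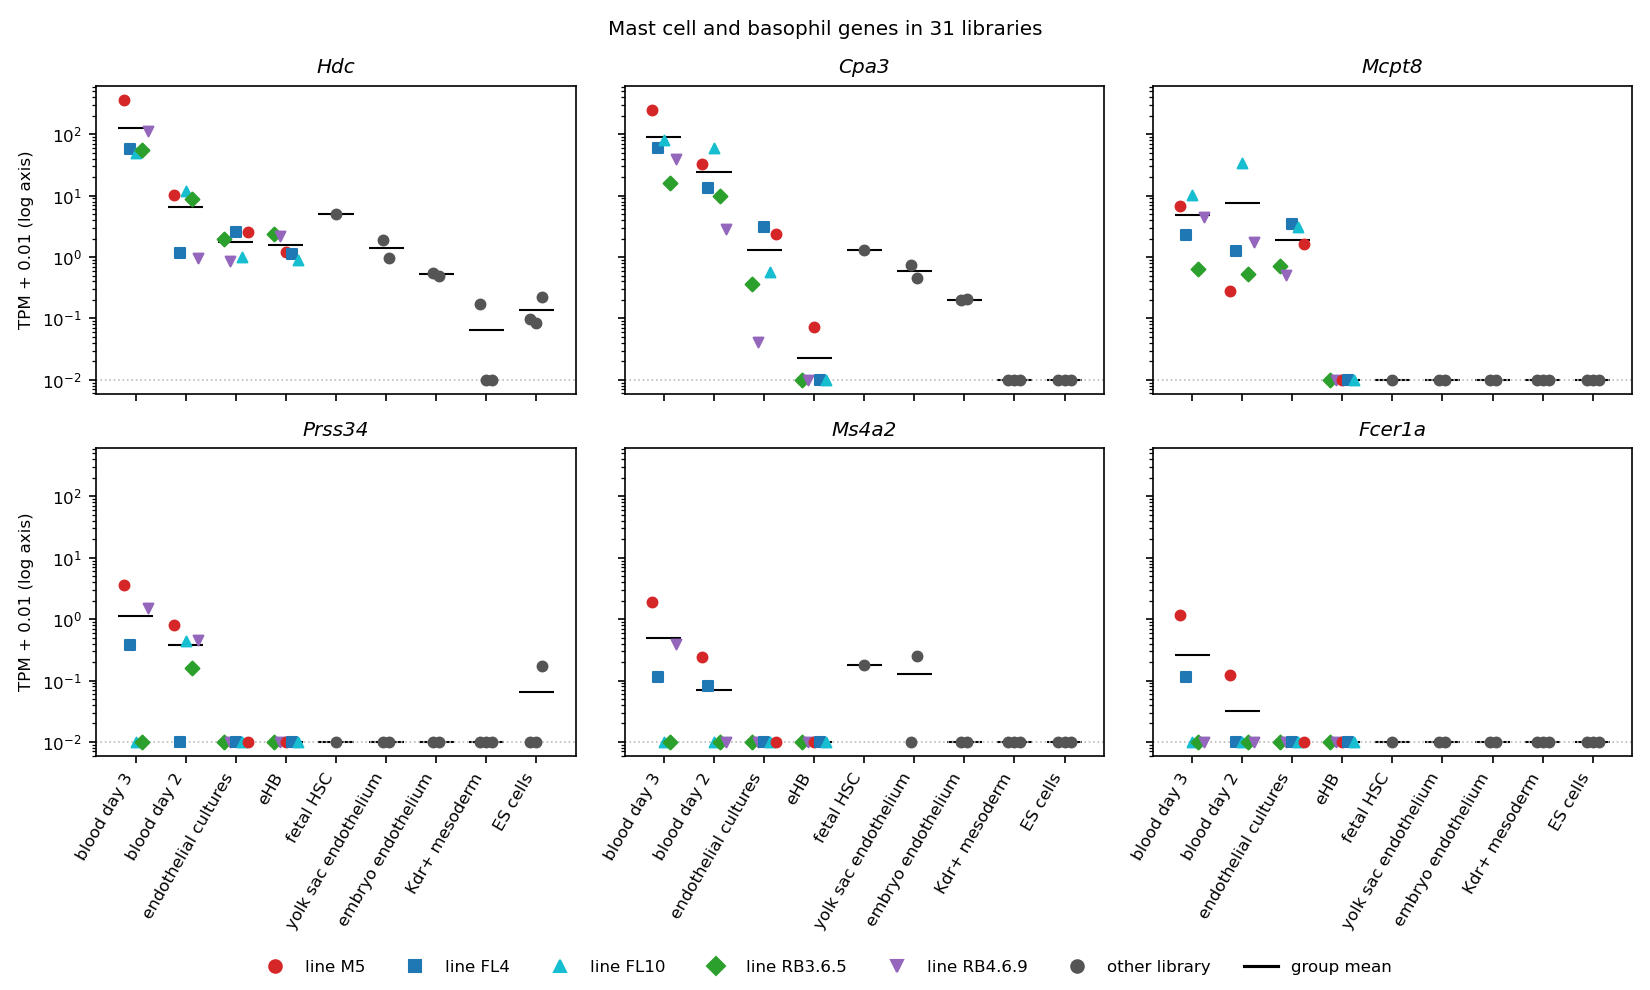
TPM + 0.01 on a log axis for the 6 genes (panels) in each of the 31 libraries, by group, with the group mean as a bar and the dotted line at 0 TPM. Hdc and Cpa3 reach 362 and 249.9 TPM in day 3 blood of line M5, while Ms4a2 and Fcer1a stay below 2 TPM in every library.

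The DNA before the start of 4 members is printed to set the 2 members highest in day 3 blood (Hdc, Cpa3) beside the 2 receptor chains near 0 (Ms4a2, Fcer1a). Each is the 250 bases before the RefSeq start on build GRCm38.p6, on the minus strand, and capitals mark AGATAA or its reverse complement TTATCT, a form of the motif bound by GATA factors. The Hdc window lies inside the span that GENCODE gives for Hdc (chr2:126593667-126619299), so it precedes the RefSeq start only.
Hdc, chr2:126618679-126618928: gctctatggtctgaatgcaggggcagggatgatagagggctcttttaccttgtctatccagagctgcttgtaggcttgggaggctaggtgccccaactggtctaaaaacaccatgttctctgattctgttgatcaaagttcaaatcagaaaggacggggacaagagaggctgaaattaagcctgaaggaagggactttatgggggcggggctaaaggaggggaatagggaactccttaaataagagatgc
Cpa3, chr3:20242182-20242431: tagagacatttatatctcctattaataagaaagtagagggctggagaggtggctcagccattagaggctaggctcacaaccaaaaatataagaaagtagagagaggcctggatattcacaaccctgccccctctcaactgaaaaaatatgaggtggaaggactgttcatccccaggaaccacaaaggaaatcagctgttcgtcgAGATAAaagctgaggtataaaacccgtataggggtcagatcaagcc
Ms4a2, chr19:11623720-11623969: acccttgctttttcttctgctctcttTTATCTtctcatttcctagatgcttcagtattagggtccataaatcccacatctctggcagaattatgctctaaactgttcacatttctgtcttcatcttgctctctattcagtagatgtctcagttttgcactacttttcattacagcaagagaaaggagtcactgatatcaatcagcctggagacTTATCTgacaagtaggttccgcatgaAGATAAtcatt
Fcer1a, chr1:173227230-173227479: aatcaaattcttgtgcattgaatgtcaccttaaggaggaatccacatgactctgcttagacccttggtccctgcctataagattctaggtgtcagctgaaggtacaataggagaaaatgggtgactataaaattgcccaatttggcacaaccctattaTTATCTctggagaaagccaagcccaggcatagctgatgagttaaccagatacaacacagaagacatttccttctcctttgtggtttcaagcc
The motif was searched on both strands in windows of 300 bases, the 250 before and 50 after the start. Ms4a2 held 3 matches, Cpa3, Fcer1a and Prss34 held 1 each, and Hdc and Mcpt8 held none. Of 32851 such windows of RefSeq genes, 11.2% held a match. The match of Cpa3 lay 46 bases before its start and that of Prss34 31 bases before its start. The variant TGATAA was found in no member and in 9.05% of windows. The E-box letters CANNTG stood in 72.3% of windows and in 5 of the 6 members, Ms4a2 being without them. A match of letters is a description and shows no binding. The windows with a match thus include both Cpa3 and genes near 0.

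The histamine-forming enzyme Hdc was higher in day 3 than in day 2 blood of every line. Hdc, which makes histamine from histidine, spans chr2:126593667-126619299 on the minus strand of GRCm38. In day 3 blood it had 362 TPM in line M5, 57.9 in FL4, 49.5 in FL10, 54.6 in RB3.6.5 and 115 in RB4.6.9. In day 2 blood the same lines had 10.2, 1.17, 11.996, 8.88 and 0.96 TPM, in the same order of lines. Every day 3 library lay above every day 2 library, and M5 stood above the other 4 on day 3. Day 3 over day 2 gave a log2 fold change of 4.14 ± 0.92 (SE; adjusted p = 0.02055, edgeR quasi-likelihood test over all genes). Hdc was the only called member among the 3 that passed the low-count filter, against 7.31% of 12084 genes called higher in the same comparison. It was also the only one of the 6 without overlap between days, where 5.32% of 16683 genes were higher without overlap. The ratio of day 3 to day 2 TPM ranged from 4.13 in FL10 to 120 in RB4.6.9, and all 5 lines were higher on day 3. Without the M5 day 3 library the log2 fold change was 3.23 (adjusted p = 0.041). Day and gate changed together, since day 3 cells were sorted with CD45 and day 2 cells without it, so the part of each cannot be told apart. Ptprc, which encodes CD45, had 16.4 to 102 TPM in day 3 blood and 0.031 to 2.75 TPM in day 2 blood.

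Hdc was detected before blood formation too. The eHB lines had 1.18 TPM in M5, 1.10 in FL4, 0.89 in FL10, 2.36 in RB3.6.5 and 2.17 in RB4.6.9. The ranges of day 2 blood and eHB overlapped, since FL4 and RB4.6.9 were still at the eHB level on day 2. The log2 fold change of day 2 blood over eHB was 2.81 ± 0.75 (SE; adjusted p = 0.009855, edgeR). In a fit blocked by line it was 2.30 (adjusted p = 0.05694), which ended the call. On TPM with limma it was also lost, with adjusted p = 0.07501 (log2(TPM + 1)). Both tested members, Hdc and Cpa3, were called higher in this comparison, against 28.5% of 12269 genes called higher.

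Hdc in endothelial cultures did not differ from eHB beyond the spread between lines. They had 2.56 TPM in M5, 2.52 in FL4, 0.988 in FL10, 1.94 in RB3.6.5 and 0.85 in RB4.6.9. Over eHB the log2 fold change was 0.25 ± 0.42 (SE; adjusted p = 0.6139, edgeR), and 34.3% of 12579 genes were called higher there. In TPM the 3 tissue-derived lines were higher in endothelial cultures than as eHB, and the 2 ES-derived lines were lower. In CPM (counts scaled by the library total) FL10 went the other way, with 0.9497 in endothelial culture and 1.012 as eHB, from 31 and 32 counts. That difference by origin was 1.52 ± 0.72 on the log2 scale (SE; adjusted p = 0.3265, interaction term in edgeR) and did not pass the threshold. The eHB media of the ES-derived lines also differed from those of the tissue-derived lines, so origin and medium cannot be told apart there.

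Over the endothelial cultures, Hdc in day 3 blood was higher by a log2 fold change of 6.57 ± 0.75 (SE; adjusted p = 4.59e-05, edgeR). Hdc and Cpa3 were the 2 of 6 members without overlap there, against 10.1% of 17128 genes. The HSC library had 4.94 TPM of Hdc, from 444 counts. That is inside the range of day 2 blood and under all day 3 libraries, with no test since HSCs were 1 library. Yolk sac endothelium had 1.85 and 0.938 TPM, against 0.536 and 0.486 TPM in embryo endothelium. The pairs did not overlap, as was so for 29.5% of 16726 genes, and the log2 fold change of 1.37 ± 0.60 (SE) did not pass the threshold (adjusted p = 0.1308, edgeR), while 15.9% of 13673 genes were called higher. Ptprc was also higher in yolk sac, at 4.92 and 7.10 TPM, than in embryo endothelium, at 1.38 and 3.07 TPM. Within each tissue, however, the library with more Hdc had less Ptprc. The part of CD45-expressing cells in these levels was not tested. The labels do not say whether these libraries came from separate litters, so their p-values may measure technical spread alone. ES cells had 0.075 to 0.217 TPM and mesoderm 0 to 0.163 TPM, the lowest of the 9 groups.

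The granule protease Cpa3 was already present in day 2 blood of every line. Cpa3, carboxypeptidase A3 of mast cell granules, which is also transcribed in some early blood progenitors, spans chr3:20215620-20242181 on the minus strand. In day 2 blood it had 33.1 TPM in M5, 13.5 in FL4, 60.6 in FL10, 9.93 in RB3.6.5 and 2.90 in RB4.6.9. In eHB it was listed at 0 in 4 lines and at 0.063 TPM, a single count, in M5. Day 2 blood thus lay above eHB in 5 of 5 lines, with a log2 fold change of 11.18 ± 1.31 (SE; adjusted p = 0.0001241, edgeR). Cpa3 and Mcpt8 were the 2 of 6 members higher without overlap in this comparison, against 7.93% of 16975 genes.

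In day 3 blood Cpa3 had 249.9 TPM in M5, 58.9 in FL4, 81.2 in FL10, 15.956 in RB3.6.5 and 39.4 in RB4.6.9. Each line was higher on day 3 than on day 2, by 1.34 times in FL10 to 13.6 times in RB4.6.9, but the ranges of the days overlapped. Day 3 over day 2 gave 1.76 ± 0.86 on the log2 scale (SE; adjusted p = 0.2151, edgeR), and 1.84 ± 0.47 in the fit blocked by line (adjusted p = 0.05444). Without the M5 day 3 library it was 0.84 (adjusted p = 0.571). A rise of Cpa3 between the days therefore did not pass the threshold, while that of Hdc did; the difference between the 2 genes was not tested.

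The balance of the 2 transcripts differed between the days in the same lines. Hdc over Cpa3 was 1.45 in M5, 0.982 in FL4, 0.609 in FL10, 3.42 in RB3.6.5 and 2.93 in RB4.6.9 in day 3 blood. In day 2 blood it was 0.308, 0.086, 0.198, 0.894 and 0.331 in the same order. The ratio was higher on day 3 in 5 of 5 lines, and the ranges overlapped through FL10 on day 3 and RB3.6.5 on day 2. Hdc made up 35.1% to 76.7% of the summed TPM of the 6 members on day 3 and 7.28% to 45.6% on day 2.

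**Figure D2:**
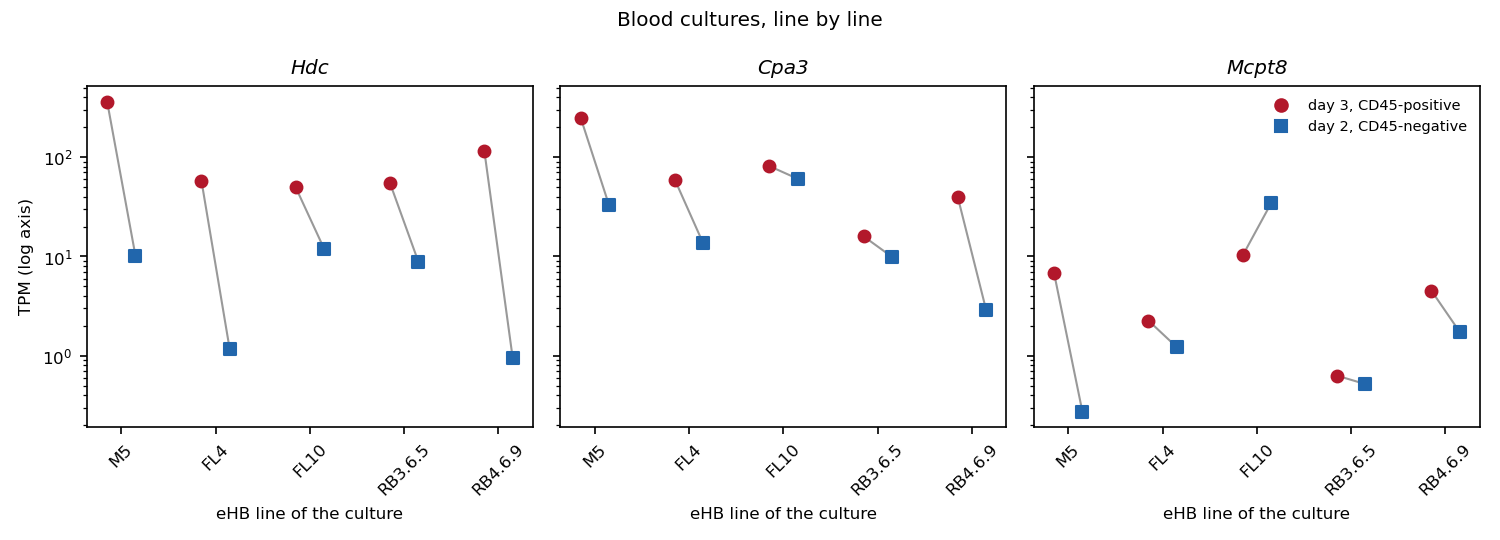
TPM on a log axis for Hdc, Cpa3 and Mcpt8 in the blood cultures of each line, with day 3 (circles, left) and day 2 (squares, right) joined by a line. Hdc and Cpa3 are higher on day 3 in 5 of 5 lines, and Mcpt8 in 4 of 5, FL10 being the exception.

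Cpa3 was detectable at low levels in endothelium. Endothelial cultures had 2.37 TPM in M5, 3.07 in FL4, 0.562 in FL10, 0.348 in RB3.6.5 and 0.032 in RB4.6.9, all below day 3 blood of any line. The log2 fold change of day 3 blood over endothelial cultures was 6.52 ± 1.13 (SE; adjusted p = 0.0006265, edgeR). Cpa3 and Hdc were the 2 called members of the 3 tested, against 31.1% of 12655 genes called higher. Over eHB, Cpa3 in endothelial cultures missed the low-count filter. Without the filter it was called higher, with a log2 fold change of 6.41 (adjusted p = 0.002327, edgeR). The ranges overlapped, endothelial RB4.6.9 (0.032 TPM) lying below eHB M5 (0.063 TPM), each from 1 count. Of the 119 endothelial counts, FL4 held 56 and M5 43. With the filter, 34.3% of 12579 genes were called higher. Yolk sac endothelium had 0.725 and 0.448 TPM and embryo endothelium 0.186 and 0.196 TPM, from 19 and 7 counts in all, too few for the filter. HSCs had 1.29 TPM, while mesoderm and ES cells were listed at 0 in all 6 libraries.

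Mcpt8, a serine protease of mouse basophil granules (chr14:56082166-56085273, minus strand), had another pattern. In day 3 blood it had 6.78 TPM in M5, 2.27 in FL4, 10.2 in FL10, 0.632 in RB3.6.5 and 4.54 in RB4.6.9. In day 2 blood it had 0.275, 1.23, 34.1, 0.52 and 1.75 TPM in the same order of lines. The FL10 day 2 library held 456 of the 497 counts of that group and stood far above the other 4. The log2 fold change of day 3 over day 2 was -0.56 ± 1.17 (SE; adjusted p = 0.7989, edgeR). It turned to 2.18 without the FL10 day 2 library (adjusted p = 0.1113), and to 0.79 in the fit blocked by line (adjusted p = 0.546). No direction between the days can be given for Mcpt8.

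In endothelial cultures Mcpt8 was present in every line. It had 1.62 TPM in M5, 3.40 in FL4, 3.09 in FL10, 0.707 in RB3.6.5 and 0.495 in RB4.6.9, and no count in any eHB library. All 5 endothelial cultures lay above all 5 eHB libraries, as did 21.7% of 17219 genes. Set against a floor of 3 counts over the eHB group, Mcpt8 was at least 33.5-fold higher in endothelial cultures and at least 259-fold higher in day 2 blood. The bound for day 2 blood rests on FL10 and is 29-fold without it. These bounds cover counting error in the eHB group only, not that in the other group or the spread between lines. The level in day 3 blood over endothelial cultures differed by 1.74 ± 0.72 on the log2 scale (SE; adjusted p = 0.05703, edgeR), with overlapping ranges. DESeq2 called it (adjusted p = 0.02644), as did edgeR without day 3 RB3.6.5 (adjusted p = 0.02513) or without endothelial FL4 (adjusted p = 0.04846). Mcpt8 had no count in HSCs, primary endothelium, mesoderm or ES cells. Endothelial cultures were unsorted, and Ptprc was at 0 to 0.031 TPM in them. Summed TPM of the 6 megakaryocyte genes was 63.4 to 1558 in endothelial cultures and 1.45 to 81.6 in eHB. Their part in the Mcpt8 level was not tested.

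Prss34, a serine protease of mouse basophils and mast cell progenitors (chr17:25298394-25300165, plus strand), was scarce. In day 3 blood it had 3.61 TPM in M5 (66 counts), 0.364 in FL4, 1.52 in RB4.6.9 (19 counts), and 0 in FL10 and RB3.6.5. In day 2 blood it had 0.793 TPM in M5, 0 in FL4, 0.43 in FL10, 0.153 in RB3.6.5 and 0.439 in RB4.6.9. The days overlapped, and Prss34 was too low for the filter. Over endothelial cultures, which had no count, day 3 blood was at least 57.4-fold higher, and at least 20.8-fold without M5. Over eHB, also without a count, day 2 blood was at least 13-fold higher. The only other group with Prss34 was ES cells, with 2 counts in line RB4.

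The IgE receptor chains stayed near 0. Fcer1a, the alpha chain that binds IgE (chr1:173221284-173227214, minus strand), had 1.15 TPM in day 3 blood of M5, from 18 counts. FL4 had 1 count on day 3, M5 had 1 on day 2, and the other 28 libraries had none. Ms4a2, the beta chain that amplifies the signal (chr19:11615523-11623719, minus strand), had 1.92 TPM from 31 counts in the same M5 library. It had 4 counts in RB4.6.9 and 1 in FL4 on day 3, and 2 in M5 and 1 in FL4 on day 2. Outside blood cultures, Ms4a2 had 7 counts in HSCs and 3 in yolk sac library 2. Day 3 blood held 36 counts of Ms4a2 and 19 of Fcer1a in all. Against a floor of 3 counts in endothelial cultures, it was at least 23.2-fold and at least 12.2-fold higher, bounds that rest on M5. Without M5 the bound for Ms4a2 is 4.52-fold, from 5 counts, and Fcer1a has 1 count left. M5 was the library with the highest Hdc, Cpa3, Prss34, Ms4a2 and Fcer1a on day 3, whereas Mcpt8 was highest in FL10.

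**Figure D3:**
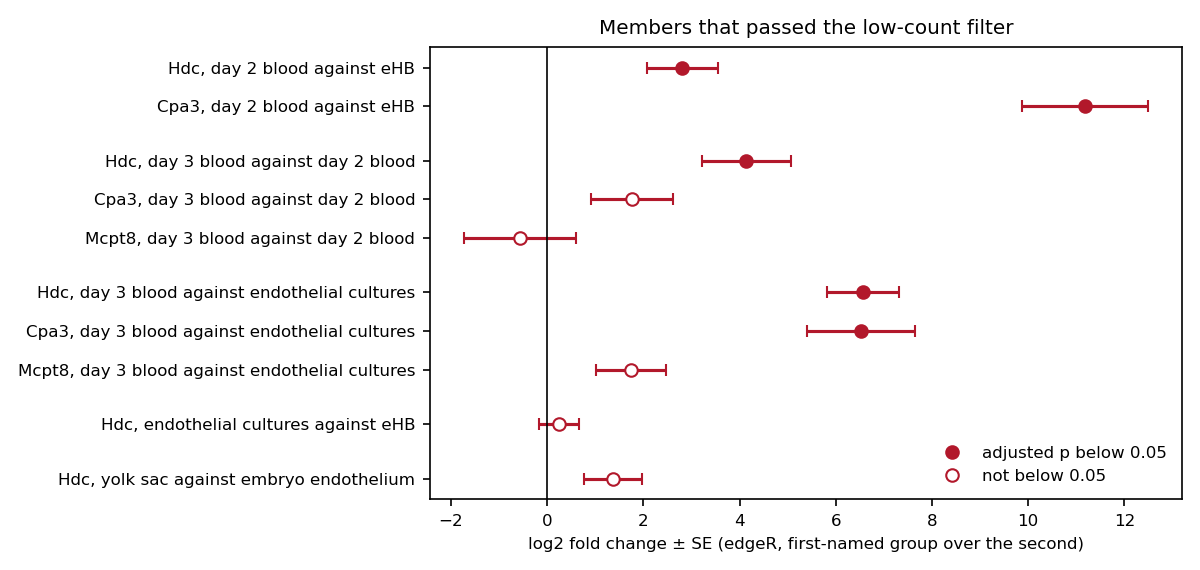
Log2 fold change with its SE (edgeR, first-named group over the second) for each member that passed the low-count filter in 5 comparisons; filled points have an adjusted p below 0.05. Hdc is filled in all 3 comparisons of blood cultures, Cpa3 in 2 of them, and no point is filled for endothelial cultures or primary endothelium.

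The third chain of the receptor and the enzymes downstream of it behaved differently from the alpha and beta chains. Fcer1g, the gamma chain, which also serves other Fc receptors of myeloid cells, had 314 to 878 TPM in day 3 blood and 43.2 to 177 TPM in day 2 blood, with no overlap. In a list of 13 signalling genes of the receptor, 12 were higher in day 2 blood than in eHB and none was lower, with a median log2 fold change of 6.62 against 0.01 over all genes tested. Among them were Btk (11.65 ± 1.25 SE), Lcp2 (10.47 ± 0.75), Syk (9.51 ± 0.79) and Lat (9.35 ± 0.91), kinases and adaptors that many other leukocytes use as well. Of 11 list genes tested in endothelial cultures against the same eHB libraries, 9 were higher and 1 lower, against 34.3% of all genes called higher. Lcp2 was at 10.45 ± 0.80 (SE) and Syk at 9.08 ± 0.89. Between day 3 and day 2, 4 of the 13 rose: Lat2 (3.42 ± 0.36 SE), Fcer1g (2.31 ± 0.52), Syk (1.74 ± 0.33) and Vav1 (1.07 ± 0.27). The list's median in that comparison was 0.44, against -0.05 over all genes.

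Of 8 basophil and IL-3 receptor genes, 5 passed the filter in day 2 blood against eHB. All 5 were higher, against 28.5% of 12269 genes. They included Csf2rb, the shared beta chain of the IL-3 receptor family (9.03 ± 1.13 SE), Csf2rb2 (8.16 ± 0.92), Cd200r1 (7.81 ± 0.82) and Itga2 (5.71 ± 1.39). All 5 tested in endothelial cultures were also higher than in eHB, against 34.3% of 12579 genes. Itga2 was at 10.39 ± 0.81 (SE), Csf2rb at 6.72 ± 0.96, Csf2rb2 at 5.18 ± 0.66 and Cd200r1 at 3.51 ± 0.76. In day 3 blood against endothelial cultures, 5 of the 7 tested were higher, against 31.1% of 12655 genes. The 1 lower gene was Itga2 (-4.56 ± 1.15 SE). None of the 7 tested passed the threshold between the days. Cd200r3, a basophil and mast cell receptor, had 0.704 to 12.02 TPM on day 3 and 0 to 2.10 TPM on day 2 (adjusted p = 0.1397, edgeR). Il4, a basophil cytokine, had 1.05 to 11.2 TPM on day 3 and 1.09 to 5.45 TPM on day 2.

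The defining genes of mature mast cells were at or near 0. The tryptases Tpsb2 and Tpsab1, the protease Mcpt9 and the receptor Mrgprb2 had no count in any of the 10 blood libraries. Mcpt4 had no count on day 3 and 0.061 TPM in 1 library on day 2. The chymase Cma1 had 0.073 to 1.59 TPM on day 3 and 0.142 to 1.34 TPM on day 2. Mcpt2 had 0 to 1.13 TPM on day 3 and 0.205 to 3.44 TPM on day 2. Mcpt1, a mucosal mast cell chymase, had 0 to 0.063 TPM on day 3 and 0.294 to 0.702 TPM on day 2, the days not overlapping. Of the 16 genes on the mast cell granule and surface list, 5 passed the filter in day 2 blood against eHB. Against 28.5% of all genes tested, 3 of the 5 were higher in day 2 blood. These were Srgn, the granule proteoglycan core (5.59 ± 1.78 SE), Kit, the SCF receptor (1.40 ± 0.39), and Ndst2, which sulfates heparin (0.85 ± 0.15), none of them restricted to mast cells. Kit and Ndst2 were also higher in endothelial cultures than in eHB (2.58 ± 0.32 and 0.58 ± 0.10, log2, SE). Slc18a2, also on the list, was lower there (-3.12 ± 0.69). In day 3 blood against endothelial cultures, Kit was lower (-1.27 ± 0.29), and Srgn (6.25 ± 1.46) and Slc18a2 (1.99 ± 0.45) were higher. None of the 5 list genes tested passed the threshold between the days. Kit was at 49.7 ± 22.8 TPM on day 3 and 46.0 ± 26.4 TPM on day 2 (SD, n = 5 each). Hdc, Cpa3 and Mcpt8 were thus detected in every blood library, while the tryptases Tpsb2 and Tpsab1 were not detectable at this depth. Prss34, Ms4a2 and Fcer1a had no count in some blood libraries of each day.

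Of the genes for histamine handling and lipid mediators, 4 of the 5 tested were higher and 1 lower in day 2 blood than in eHB. Of all genes tested there, 28.5% were called higher. Alox5ap, which serves leukotriene synthesis, rose by 11.47 ± 0.75 (log2, SE), and Hrh1, a histamine receptor, fell by 3.12 on the same scale. On day 3, Hpgds, a prostaglandin D2 synthase, was higher than on day 2 (3.73 ± 0.69), as was Alox5ap (2.71 ± 0.45). Of 11 transcription factors linked to these lineages, 7 of the 10 tested were higher in day 2 blood than in eHB, Spi1 (8.62 ± 1.03 SE), Gata1 (6.34 ± 1.62), Runx1 (5.33 ± 0.84) and Gfi1b (3.61 ± 0.88) by most. On day 3, Cebpa (3.81 ± 0.52 SE), Spi1 (2.63 ± 0.34) and Mitf (2.05 ± 0.53) were higher than on day 2, and the other 8 did not pass the threshold. Gata2 was at 66.1 ± 15.7 TPM on day 3 and 53.6 ± 14.2 TPM on day 2 (SD, n = 5 each). The ectopic forms of Gata2 and Tal1 have rows of their own, and how reads were divided between those and the endogenous rows is uncertain.

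Most tested genes of neutrophils, eosinophils and macrophages were higher on day 3 than on day 2, against 7.31% of 12084 genes. Of 9 neutrophil granule genes, 8 were higher on day 3 than on day 2, and their summed TPM was 1384 to 27900 on day 3 and 29.5 to 131 on day 2. The eosinophil genes Prg2 (9.21 ± 1.56, log2, SE) and Siglecf (5.14 ± 0.68) were the 2 of 9 tested and both rose. Their list summed to 48.7 to 438 TPM on day 3 and 0.5 to 2.95 TPM on day 2. Of 7 macrophage genes 4 were tested and 3 rose, with sums of 94.2 to 394 TPM on day 3 and 2.59 to 9.75 TPM on day 2. Megakaryocyte genes summed to 481 to 11980 TPM on day 3 and 595 to 20850 TPM on day 2, and erythroid genes to 299 to 11440 TPM on day 3 and 2524 to 56800 TPM on day 2, with none of the 12 called. The M5 day 3 library, highest in Hdc and Cpa3, was also highest in Prg2 (272 TPM), Mpo (2768 TPM) and Ngp (457 TPM). The part of these cell types in the Hdc and Cpa3 levels was not tested.

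**Figure D4:**
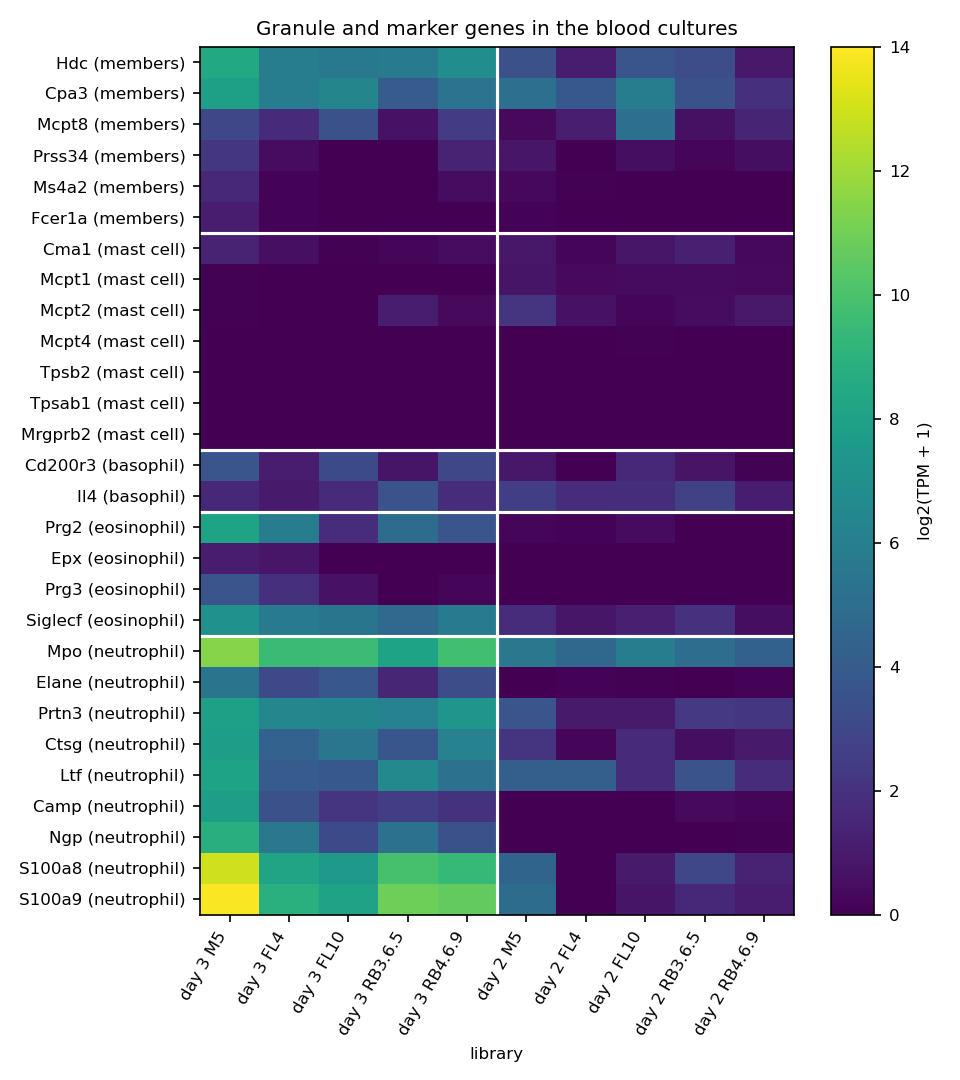
Colour gives log2(TPM + 1) for the members and for mast cell, basophil, eosinophil and neutrophil genes (rows, split by white lines) in the 10 blood libraries (columns, day 3 left and day 2 right). The rows from Mcpt4 to Mrgprb2 are dark throughout, and the neutrophil rows are brightest on day 3, with S100a9 at 15583 TPM in M5.

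By origin of the line, no member passed the threshold in either blood stage, and no gene of 12493 on day 3 or of 12415 on day 2 did (0% called; edgeR). At an unadjusted p under 0.05 there were 1540 genes on day 3 and 500 on day 2, and DESeq2 called 157 higher and 752 lower on day 3, and 89 higher and 107 lower on day 2. Cpa3 was the only member with no overlap between origins on either day. It averaged 130 ± 104 TPM in tissue-derived and 27.7 ± 16.6 TPM in ES-derived lines on day 3 (SD, n = 3 and 2), and 35.8 ± 23.6 TPM in tissue-derived and 6.42 ± 4.97 TPM in ES-derived lines on day 2. By origin the log2 fold change was 2.15 ± 0.75 on day 3 (SE; adjusted p = 0.3222) and 2.59 ± 0.82 on day 2 (adjusted p = 0.9999). Without M5 it was 1.18 on day 3 (adjusted p = 0.3104). DESeq2 called Cpa3 on day 3 (adjusted p = 0.02674). On day 3, 12% of 15944 genes, and on day 2, 3.69% of 16054 genes, were likewise higher without overlap. Hdc averaged 157 ± 178 TPM in tissue-derived and 84.9 ± 42.9 TPM in ES-derived lines on day 3, an order that turned without M5 (log2 fold change -0.84).

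The members followed each other unevenly. Over 31 libraries, Pearson's r of log2(TPM + 1) was 0.93 for Ms4a2 with Fcer1a and 0.90 for Hdc with Cpa3. It was 0.31 for Mcpt8 with Ms4a2 or Fcer1a. Over the 10 blood libraries, Hdc and Cpa3 had r = 0.80 and Mcpt8 had r = 0.16 to 0.58 with the other 5. These values share lines and libraries, and for Ms4a2 and Fcer1a they rest on M5. Ranked by the median r with the 6 members among 14344 genes over 31 libraries, the nearest were Mrgpra2b (0.83), Ankrd22 (0.82), Il1r2 (0.82), Gpr34 (0.80), Arg2 (0.80) and Mrgpra2a (0.80). Over the 10 blood libraries and 11697 genes they were N4bp2l1 (0.84), Rdh12 (0.84), Zbtb42 (0.82), Serinc3 (0.82), Synj1 (0.82) and P2rx4 (0.82). The median r includes Ms4a2, Fcer1a and Prss34, for which M5 held 31 of 36, 18 of 19 and 66 of 89 day 3 counts. How far both rankings rest on that library was not tested. The order also depends on the pseudocount. With 0.1 in place of 1, Mrgpra2b remained first over 31 libraries and Arg2 fell to rank 183, and over the blood libraries Zbtb42 was first and N4bp2l1 and Rdh12 fell to ranks 22 and 35. Mcpt8 was the outlying member for all 12, with r between 0.15 and 0.48.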

How the data were processed

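Per the labels' protocols, total RNA was sequenced from TruSeq libraries, and no source states whether counting used strand. A gene and an antisense partner can therefore not be told apart. The authors deposited expected counts per gene and TPM, the TPM renormalised in a way no source describes. The tools listed are RSEM 1.2.3, Bowtie 0.12.9 and CASAVA 1.8.2, with build mm10, per the submitters' processing notes. The header of the TPM table holds 33 names for 32 cells a row, one of them ("transcripts") for a column that is absent, and it was left out before names were given to columns. Each of the 31 TPM columns then had the detection pattern of the count column of the same name. RSEM divides reads that fit several transcripts. The members' counts were whole (within 0.005) in all 31 libraries for Ms4a2, Fcer1a, Mcpt8 and Prss34, in 29 for Hdc and in 26 for Cpa3.

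Expected counts were rounded and tested in R 4.3.3 by the robust quasi-likelihood method of edgeR 4.0.16, after TMM scaling and filterByExpr, with only the groups compared in a fit. P-values were adjusted by Benjamini-Hochberg over all genes tested, with a threshold of 0.05. Alternatives were size factors by RLE, DESeq2 1.42.0, no filter, limma 3.58.1 on log2 TPM with a pseudocount of 1 or 0.1, the line as a block, and leaving out each library. Bounds without the library with most counts were added after the values were seen. The edgeR fit was also run on simulated counts with the same dispersion for all genes and no line effect. Such counts do not test the fit under the spread between lines seen here. A fold over a group without counts uses a floor of 3 counts over that group. It takes the counts of the other group as they are, without their counting error. Blood, endothelial and eHB groups hold the same 5 lines, so the lines pair them. As a check, deviations from the group means were correlated between libraries of 1 line. For day 3 and day 2 blood r was between 0.095 and 0.648. There the day 3 libraries of M5 and RB3.6.5 were closer to the day 2 library of another line. For day 2 blood and eHB r was between 0.162 and 0.29, and for day 3 blood and endothelial cultures between 0.0569 and 0.304.

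The members and 11 lists (101 genes, all matched, Siglecf and Adgre1 under older symbols) were chosen with earlier results of these data known. All 6 members were described in each comparison. Of each list, up to 4 called genes with the largest changes were named, plus genes needed to state an absence. The genes most like the members have the highest median Pearson's r, among genes with 1 TPM or more in at least 3 of the libraries used. Promoters came from RefSeq (GRCm38.p6, 6 of 6 matched), and gene positions from GENCODE on GRCm38.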

Additional observations from a re-analysis of the deposited data

Results flagged for a closer look

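Among the groups of 5 libraries, 17 member and group combinations held a value above 0, and 7 had 1 library far from the other 4. The nominal rate of this flag is about 1 in 20 groups, which need not hold for skewed TPM or for groups with mostly 0 counts. The number flagged is therefore no test, and libraries recur among the 7. In day 3 blood, line M5 was highest for Hdc (362.217 TPM, next 115.3), Cpa3 (249.91 TPM, next 81.24), Ms4a2 (1.923 TPM, next 0.38) and Fcer1a (1.149 TPM, next 0.104). In day 2 blood, Fcer1a in M5 (0.112 TPM) rests on 1 count, the other 4 lines being at 0. The same holds for Cpa3 in the M5 eHB library (0.063 TPM). Mcpt8 in day 2 blood of FL10 (34.125 TPM) stood above the next line at 1.747 TPM.

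Hdc TPM moved in opposite directions by origin between endothelial cultures and eHB. The mean difference in TPM was 1.839 higher for the tissue-derived lines than for the ES-derived lines, and every tissue-derived line was higher while both ES-derived lines were lower in endothelial cultures. By CPM (counts scaled by the library total) FL10 was not higher (0.9497 in endothelial culture, 1.012 as eHB). The interaction term, chosen after the values were seen, was 1.52 ± 0.72 (log2, SE; adjusted p = 0.3265, edgeR), and 1.51 when blocked by line (adjusted p = 0.2705).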

How the results depend on the processing

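Members called in day 2 blood against eHB numbered 2, where 28.5% of 12269 genes were called higher in the same fit. They numbered 4 without the low-count filter (Mcpt8 and Prss34 added), 1 with limma (both pseudocounts) and 1 with the line as a block. DESeq2 added Prss34 (adjusted p = 0.002887) and gave no p-value for Mcpt8. Hdc there had a log2 fold change of 1.21 or 1.50 with limma (adjusted p = 0.07501 and 0.09498) and 2.30 with the block (0.05694). In day 3 blood against endothelial cultures, 2 members were called, where 31.1% of 12655 genes were called higher in the same fit. With DESeq2 5 were called (Ms4a2, Mcpt8 and Prss34 added), and without the filter 4 (Ms4a2 and Prss34 added). Line M5 held 31 of the 36 day 3 counts of Ms4a2 and 66 of the 89 of Prss34. In endothelial cultures against eHB 0 members were called, and 2 with DESeq2 or without the filter (Cpa3 and Mcpt8). The main fit there tested 1 member and called 34.3% of 12579 genes higher. Mcpt8 on day 3 against day 2 turned from -0.56 to 0.53 (limma, pseudocount 1), 0.97 (pseudocount 0.1), 0.79 (block) and 2.18 (without day 2 FL10), with -0.98 to 2.18 over all libraries left out. The causes were not tested. The block changed no other call of a member.

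Over all genes, day 2 blood against eHB gave 3498 higher and 3134 lower, and by limma 1530 and 5657 (pseudocount 1) or 1521 and 5637 (0.1). Day 3 against day 2 blood gave 883 and 347. DESeq2 gave 1520 and 1135, and limma 163 or 161 lower. Leaving out a library gave 554 (without day 3 M5) to 1151 higher and 103 (without day 3 M5) to 779 lower (without day 3 RB3.6.5). Day 3 blood against endothelial cultures gave 3932 higher, and 2266 or 2263 by limma. Yolk sac against embryo endothelium gave 1168 lower, and 716 to 1860 with a library left out (without yolk sac 1 and embryo 2). Yolk sac and embryo libraries share only a number, and those of the same number had r = -0.175. With that number as a block 963 genes were lower, and with crossed numbers, added after seeing the data, 2232.

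By origin no gene was called on either day. On day 3, DESeq2 gave 157 higher and 752 lower, no filter 6 and 111, limma 9 and 141 (pseudocount 1) or 9 and 121 (0.1), and leaving out a library 0 to 221 and 0 to 829, the highest without RB4.6.9. DESeq2 called 1 member, Cpa3. On day 2, DESeq2 gave 89 and 107, no filter 1 lower, limma 2 lower, and leaving out a library 0 to 1 lower. Origin effects over libraries left out were -0.845 (without M5) to 1.22 for Hdc and -0.036 (without RB3.6.5) to 7.10 for Prss34 on day 3, and -0.145 (without FL10) to 4.31 for Mcpt8 and -0.074 (without RB4.6.9) to 3.29 for Hdc on day 2. Hdc in day 3 against day 2 blood kept its call in all 10 such fits (log2 3.23 to 4.52), and Cpa3 in day 2 blood against eHB in all 10 (10.70 to 12.35). Counts of 0 to 31 in the receptor chains limit what can be said of them.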
